A study of Rattus norvegicus with 9 samples.

Results

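The enzymes described here are the phase II conjugation enzymes of the liver: the glutathione S-transferases (GST, with the microsomal MGST), the UDP-glucuronosyltransferases (UGT) and the sulfotransferases (SULT). Members were chosen by gene symbol, with earlier results of these data known. The symbols taken start with Gsta, Gstk, Gstm, Gsto, Gstp, Gstt or Gstz and a number, Ugt1 to Ugt3, or Sult and a number. Mgst1 to Mgst3 were also taken, and the pi-class gene Gstp1 was left out. The rule found 36 of the 17156 genes listed, namely 21 GST and MGST genes, 6 UGT genes and 9 SULT genes.

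Liver RNA was sequenced from 9 male Sprague–Dawley rats, with 3 rats each as normal control group, model group and tormentic acid (TA) group. The model group and the TA group were given carbon tetrachloride (CCl4) by mouth at 2 ml/kg for 9 weeks, which induces liver fibrosis, while the normal control group received the same volume of normal saline. The TA group was then given TA, a compound extracted from the herb Potentilla chinensis, at 3 mg/kg for 6 weeks. The labels of the TA livers give no dose, and the livers were taken as one group as the design of the study describes. No group of healthy rats given TA was analysed here, so TA was seen only in livers that had been exposed to CCl4.

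Conjugation enzymes attach a polar group to drugs, hormones, bile acids, bilirubin and reactive products of oxidation, which can then leave the hepatocyte through export pumps. GSTs attach glutathione, UGTs attach glucuronic acid from UDP-glucuronic acid, and SULTs attach sulfate from the activated donor PAPS. Hepatocytes express most of these enzymes at a high level, and the cytosolic GSTs fall into classes such as alpha, mu, theta, omega, kappa and zeta.

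Promoters are shown for 3 mu-class genes of one cluster that differed in their values: Gstm3, which was higher after CCl4, and Gstm1 and Gstm7, which then had lower means. In RefSeq the mu-class genes lie on chromosome 2 in the order Gstm5, Gstm6l, Gstm7, Gstm6, Gstm3l1, Gstm3, Gstm2, Gstm1 and Gstm4. Each line gives the 250 bases before the RefSeq start of the gene, 5′ to 3′ on the strand of the gene, with matches to either motif searched in capitals.
Gstm3, chr2:198300668-198300917, minus strand, GRCr8: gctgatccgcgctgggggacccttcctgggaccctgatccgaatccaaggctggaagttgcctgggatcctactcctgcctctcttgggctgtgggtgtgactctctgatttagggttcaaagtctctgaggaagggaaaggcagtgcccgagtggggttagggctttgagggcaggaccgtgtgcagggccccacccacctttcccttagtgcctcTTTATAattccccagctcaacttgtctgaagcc
Gstm1, chr2:198343384-198343633, minus strand, GRCr8: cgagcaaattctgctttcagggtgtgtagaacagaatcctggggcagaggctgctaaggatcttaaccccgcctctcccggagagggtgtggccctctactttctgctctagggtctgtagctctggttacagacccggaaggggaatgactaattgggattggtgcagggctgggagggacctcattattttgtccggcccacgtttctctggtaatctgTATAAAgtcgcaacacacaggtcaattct
Gstm7, chr2:198260320-198260569, minus strand, GRCr8: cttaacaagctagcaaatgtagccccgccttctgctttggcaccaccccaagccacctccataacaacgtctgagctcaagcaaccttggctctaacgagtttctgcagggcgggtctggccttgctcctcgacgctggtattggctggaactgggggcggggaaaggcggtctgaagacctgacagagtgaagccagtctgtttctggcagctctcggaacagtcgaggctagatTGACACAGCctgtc
The motifs searched on both strands were the TATA box, spelled TATAAA, and the core of the antioxidant response element, spelled TGACNNNGC, and they do not overlap in these windows. The capitals begin 33 bases before the start of Gstm3 (a TATA box read on the other strand), 29 bases before that of Gstm1 (a TATA box) and 14 bases before that of Gstm7 (an antioxidant response element core). The TATA box was found in 12.9% of 33469 RefSeq promoters of this length and in 6 of the 30 member genes with a promoter, namely Gsta1, Gstm1, Gstm3, Sult1c2a, Sult1d1 and Ugt2b10. The antioxidant response element core was found in 10.1% of the promoters and in 3 of the 30 member genes, namely Gsta3, Gstm7 and Gstz1.

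Each liver had 13156735 to 18090405 reads counted on genes. Levels are given as CPM, the reads of a gene scaled to a common library size after TMM normalization over the 9 livers, except where levels of different genes are compared. Overlap between groups is likewise stated after TMM unless another measure is named. In FPKM, reads per gene length and library total without TMM, Model and Normal livers overlapped for Gstm1, Gstt1, Gstk1, Gsto1, Gstz1, Ugt2b37, Ugt2a1 and Sult1a1, which are described below as separated. The first Model rat stood apart from the other livers. Its 50 most abundant genes held 27.9% of the reads against 40.4% to 45.7% elsewhere, and its summed CPM of 12 hepatocyte markers was 40445 against 115360 to 200430 in the other 8 livers. All 12 hepatocyte markers had reads in every liver. Its 8 cholangiocyte markers summed to 2015 CPM against 18.3 to 205 elsewhere, and the 9 measured of 10 stellate cell and myofibroblast markers to 12552 CPM against 211 to 1496. These markers also differed between the groups without that rat. The cholangiocyte markers summed to 205 and 126 CPM in the second and the third Model livers against 18.3 to 31.9 in the Normal livers and 35.6 to 56.4 in the TA livers. The stellate cell and myofibroblast markers summed to 1241 and 1496 CPM in those Model livers against 211 to 306 in the Normal livers and 699 to 1196 in the TA livers. Calls that were lost without the first Model rat are named beside the comparison, and the part of these other cells in the results was not tested. In bulk liver RNA, fewer hepatocytes and less RNA of a gene per hepatocyte cannot be told apart.

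**Figure D1:**
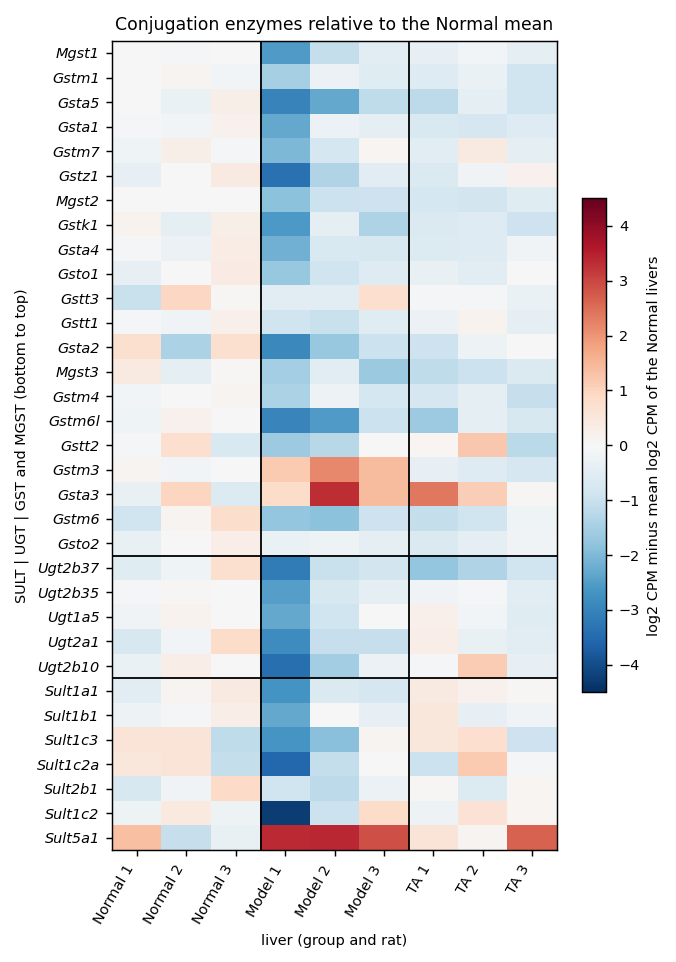
Log2 CPM of 33 conjugation enzyme genes in each of the 9 livers (columns), minus the mean log2 CPM of the 3 Normal livers; blue is lower and red is higher, and genes are ordered by FPKM in the normal control group within each family. The first Model rat was the lowest liver for most genes, while Gstm3, Gsta3 and Sult5a1 were red in all 3 Model livers.

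Between genes, levels were compared per length, as FPKM. In the normal control group Mgst1, an enzyme of the endoplasmic reticulum and the outer mitochondrial membrane, had the highest FPKM at 2059 ± 53.4 (SD, n = 3). The mu-class Gstm1 followed at 902 ± 104, and the phenol sulfotransferase Sult1a1 came next at 524 ± 150. The livers of these 3 genes did not overlap in FPKM with one another. Gsta5 (alpha class), Ugt2b37 (a steroid and bile acid type UGT2B gene) and Gsta1 followed at 403 ± 69.5, 358 ± 163 and 351 ± 34.9, and from Sult1a1 downward these neighbours overlapped. Mgst1, Gstm1 and Sult1a1 also held the first 3 places among the Model livers and among the TA livers. Gsta5 had place 4 among Normal livers, 9 among Model livers and 6 among TA livers. Gstm3 had places 27, 15 and 27. At the other end, 7 members had a mean FPKM under 1 in the normal control group, namely Gstm6, Sult1c2, Gsto2, Sult6b1, Sult5a1, Ugt2b7 and Sult1d1.

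The members together held 0.922% to 1.21% of the reads of the Normal livers, 0.406% to 0.942% of those of the Model livers and 0.796% to 0.918% of those of the TA livers. Summed GST and MGST CPM was 6522, 6862 and 7128 in the Normal livers, 1549, 3960 and 5026 in the Model livers, and 4682, 6051 and 4831 in the TA livers. The Normal livers were all above the Model and TA livers in this sum. Summed UGT CPM was 3345, 4225 and 6157 in the Normal livers, 629, 2260 and 3036 in the Model livers, and 2705, 2777 and 2637 in the TA livers. The UGT sum was likewise higher in every Normal liver than in any Model or TA liver. Summed SULT CPM was 1052, 1366 and 1525 in the Normal livers, 217, 925 and 886 in the Model livers, and 1671, 1401 and 1213 in the TA livers. The SULT sums of the TA livers were within or above the range of the Normal livers, and those of the Model livers were below both. These separations are of CPM after TMM. As a share of reads without TMM, UGT was 0.283% in the first Normal liver against 0.320% in the third Model liver. The SULT share was 0.0889% in the first Normal liver against 0.107% and 0.0933% in the second and the third Model livers. The GST and MGST share stayed at 0.551% or more in Normal livers, above all Model and TA livers.

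Set against the summed CPM of the hepatocyte markers of the same liver, the families overlapped between all 3 groups. GST and MGST CPM equalled 3.62% to 4.77% of the hepatocyte marker CPM for Normal livers, 3.43% to 3.95% for Model livers and 3.02% to 3.73% for TA livers. UGT CPM equalled 1.85% to 4.12%, 1.55% to 2.39% and 1.39% to 2.14%, in the same order. SULT CPM equalled 0.583% to 1.02%, 0.536% to 0.801% and 0.699% to 1.32%. The family sums separated the Model livers from the Normal livers as CPM after TMM and not as a share of the hepatocyte markers. As a share of reads without TMM, only the GST and MGST sum separated them. Overlap among 3 livers a group does not show that the shares were equal, and the cause was not tested.

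**Figure D2:**
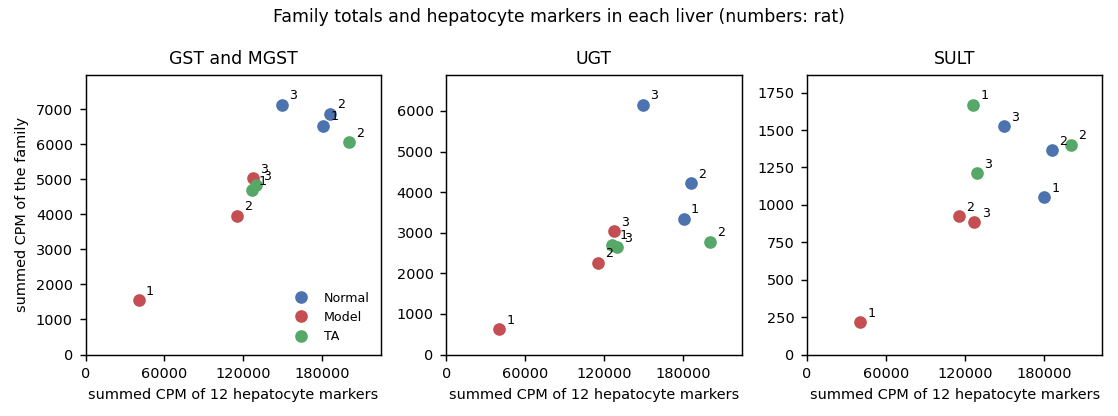
Summed CPM of each family (vertical axis) against the summed CPM of 12 hepatocyte markers (horizontal axis), one point per liver, with the number of the rat beside it. The first Model rat was lowest on both axes in all 3 panels, and the remaining livers lay between 115360 and 200430 on the horizontal axis.

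Model VS Normal asks how the enzymes differed after CCl4. Of the 36 members, 32 passed the filter on low counts, and Gstm6, Sult1d1, Sult6b1 and Ugt2b7 did not. In edgeR's quasi-likelihood test at an adjusted p under 0.05, 1 member rose (Gstm3; 6.86% of all genes tested were called higher) and 1 fell (Mgst2; 1.01% were called lower). DESeq2 called 3 members higher (background 11.3%) and 8 lower (background 4.75%) at an adjusted p under 0.05, and limma voom called 3 higher (background 15.5%) and 9 lower (background 11.5%). The thresholds of the study were an unadjusted p under 0.05 and an absolute log2 fold change above 1, applied here to the edgeR test. By them, 3 members were DEGs with higher levels (background, the share of all tested genes called so, 16.6%) and 9 were DEGs with lower levels (background 5.55%). With DESeq2, the tool of the study, which fitted all 36 members, the same thresholds gave 3 (background 15.2%) and 16 (background 6.13%). The Model livers were all above the Normal livers for 2 members (background 20.9%) and all below them for 17 (background 17.3%). Of 3762 genes averaging 5 or more in log2 CPM, 388 had all Model livers above and 1291 all below the Normal livers. By the thresholds of the study in edgeR, 228 of those 3762 genes were higher and 395 were lower, and 2637 had a negative log2 fold change. The log2 fold change was negative for 29 of 32 members, with a median of -0.99 against 0.02 over all genes tested, -0.33 over genes averaging 5 or more in log2 CPM and -0.91 over the 12 hepatocyte markers. By family, the median was -0.97 over 20 GST and MGST genes, -1.27 over 5 UGT genes and -0.92 over 7 SULT genes. Without the first Model rat, the members' median was -0.76, and 3 members were DEGs with higher (background 12.2%) and 6 with lower levels (background 3.77%) by the thresholds of the study. Gsta4, Gstk1, Gsto1 and Mgst2 then no longer passed them, with log2 fold changes of -0.73, -0.88, -0.77 and -0.96, whereas Ugt2b37 did (-1.03). Without the third Model rat, 2 members rose (background 12.9%) and 9 fell (background 6.41%) at an edgeR adjusted p under 0.05, and 17 were DEGs with lower levels (background 10.9%). Gsta3 lost its call by the thresholds of the study without the second Model rat or the first or the third Normal rat, Gsta2 and Ugt2a1 without the third Normal rat, Gsta4 and Gstk1 without the first or the third Normal rat, Gsto1 without the third Normal rat, Mgst3 without the first Normal or the third Model rat, and Gstk1 also without the third Model rat. Gsta5, Gstm3, Gstm6l and Sult5a1 kept theirs with any 1 rat left out. The 7 cholangiocyte markers tested had a median log2 fold change of 4.25, with 6 higher at an edgeR adjusted p under 0.05, and the 9 stellate cell and myofibroblast markers one of 3.59, with 7 higher. Scaling by library totals moved the median of all genes to 0.65 and that of the members to -0.49, which is -1.14 relative to all genes, and turned the sign of Gsto2 and Gstt3.

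Gstm3, a mu-class GST, was measured at 12.1, 10.3 and 11.2 CPM in the Normal livers, 25.4, 50.8 and 30.0 in the Model livers and 8.54, 7.53 and 6.64 in the TA livers. Every Model liver was above every other liver, and every TA liver was below every Normal liver. For Model VS Normal its log2 fold change was 1.66 (SE 0.30, edgeR adjusted p = 0.0232), or 3.16-fold, and 1.83 without the first Model rat (edgeR adjusted p = 0.0104). The call was lost without any single Normal rat (edgeR adjusted p 0.0856, 0.136 and 0.114). Gstm1, a mu-class gene of the same cluster, was measured at 1193, 1307 and 1090 CPM in the Normal livers, 418, 1001 and 824 in the Model livers and 790, 975 and 640 in the TA livers. Its Normal livers were above all others in CPM, with a log2 fold change of -0.67 (SE 0.46, edgeR adjusted p = 0.364) for Model VS Normal. In FPKM the second Model liver was at 1037 against 903, 1006 and 797 in the Normal livers, and under library totals the log2 fold change was -0.14. Gstm7 was measured at 696, 958 and 760 CPM in the Normal livers, 198, 464 and 840 in the Model livers and 569, 1066 and 603 in the TA livers. Its groups overlapped, and its log2 fold change was -0.68 (SE 0.55, edgeR adjusted p = 0.434). Gstm6l, also of this cluster, was measured at 14.6, 19.2 and 16.6 CPM in the Normal livers, 2.02, 2.76 and 8.48 in the Model livers and 5.34, 12.5 and 10.1 in the TA livers. Its log2 fold change of -1.93 (SE 0.53, edgeR adjusted p = 0.0620) passed the thresholds of the study. Mu-class symbols have been reassigned between annotation releases, and reads of such close paralogs may have been split between them.

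Mgst2, a membrane enzyme that also makes leukotriene C4, was measured at 92.7, 92.8 and 93.1 CPM in the Normal livers. It was measured at 26.0, 47.9 and 48.6 CPM in the Model livers and at 53.7, 51.8 and 63.7 CPM in the TA livers. In CPM the 3 groups did not overlap, with the TA livers between the others. In FPKM, without TMM, the Model livers (115, 144 and 133) and the TA livers (139, 121 and 152) overlapped, and the Normal livers stayed above both. For Model VS Normal it fell by 1.18 on the log2 scale (SE 0.29, edgeR adjusted p = 0.0480), and by 0.96 without the first Model rat (edgeR adjusted p = 0.0331). The call was lost without any single Normal rat (edgeR adjusted p 0.131, 0.170 and 0.141), without the second Model rat (0.0828) and under library totals (0.0999). Mgst1 was measured at 2382, 2263 and 2344 CPM in the Normal livers, 395, 1097 and 1697 in the Model livers and 1798, 2162 and 1700 in the TA livers. Its groups did not overlap in CPM either, though the nearest Model and TA livers were at 1697 and 1700 CPM. In FPKM its TA livers (1882, 2043 and 1641) overlapped both the Model livers (up to 1880) and the Normal livers (from 2014). Its log2 fold change of -1.13 (SE 0.60, edgeR adjusted p = 0.250) did not pass either call rule in edgeR. In DESeq2 it passed the thresholds of the study (-1.16, unadjusted p = 0.0192), and in limma voom its adjusted p was 0.0448. With the first Model rat left out, the edgeR value was -0.76. Mgst3, another microsomal enzyme, was measured at 35.0, 19.4 and 27.9 CPM in the Normal livers, 9.09, 19.2 and 8.20 in the Model livers and 12.0, 13.7 and 17.1 in the TA livers. Its log2 fold change was -1.17 (SE 0.39, edgeR adjusted p = 0.0992), a DEG by the thresholds of the study.

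The alpha class, whose enzymes handle lipid peroxidation products and steroids, held genes with positive and negative log2 fold changes. Gsta5 was measured at 501, 398 and 594 CPM in the Normal livers, 61.1, 99.2 and 223 in the Model livers and 216, 370 and 263 in the TA livers. The Normal livers were above all others, and the TA livers overlapped the Model livers only through 1 liver of each group. Its log2 fold change was -1.96 (SE 0.52, edgeR adjusted p = 0.0572) for Model VS Normal, and without the first Model rat it was -1.64 (edgeR adjusted p = 0.0468). Gsta2 was measured at 62.9, 14.2 and 62.4 CPM in the Normal livers, 5.06, 11.6 and 19.7 in the Model livers and 20.1, 32.4 and 37.7 in the TA livers. Its second Normal rat was within the range of the Model livers, and its log2 fold change was -1.94 (SE 0.64, edgeR adjusted p = 0.0990). Gsta3 was measured at 3.40, 8.56 and 2.77 CPM in the Normal livers, 7.88, 44.8 and 12.0 in the Model livers and 22.8, 9.47 and 4.47 in the TA livers. Its groups overlapped, and its log2 fold change of 2.12 (SE 0.72, edgeR adjusted p = 0.105) made it a DEG by the thresholds of the study. Without the second Model rat it was 1.01 (edgeR unadjusted p = 0.108), and the call was lost. Gsta1 and Gsta4, the latter known for conjugating 4-hydroxynonenal, had log2 fold changes of -0.76 and -1.06, and Gsta4 was a DEG by the thresholds of the study. Without the first Model rat they were -0.37 and -0.73, and Gsta4 was no longer one. Alpha-class symbols have also shifted between annotation releases, and their reads may have been split between near-identical copies.

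The theta-class Gstt1 was measured at 56.6, 53.7 and 70.4 CPM in the Normal livers, 31.7, 29.9 and 41.1 in the Model livers and 50.0, 66.9 and 43.6 in the TA livers. The Model livers were below all other livers, with a log2 fold change of -0.81 (SE 0.23, edgeR adjusted p = 0.0710) for Model VS Normal. The kappa-class Gstk1, the omega-class Gsto1 (a dehydroascorbate reductase) and the zeta-class Gstz1 (an enzyme of tyrosine breakdown) had log2 fold changes of -1.26, -1.01 and -1.36, without overlap between groups, and the first 2 were DEGs by the thresholds of the study. With the first Model rat left out they were -0.88, -0.77 and -0.91, and none of the 3 genes passed the thresholds. Gstt3 and Gsto2 had log2 fold changes of -0.16 and -0.38, and both turned positive under library totals.

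**Figure D3:**
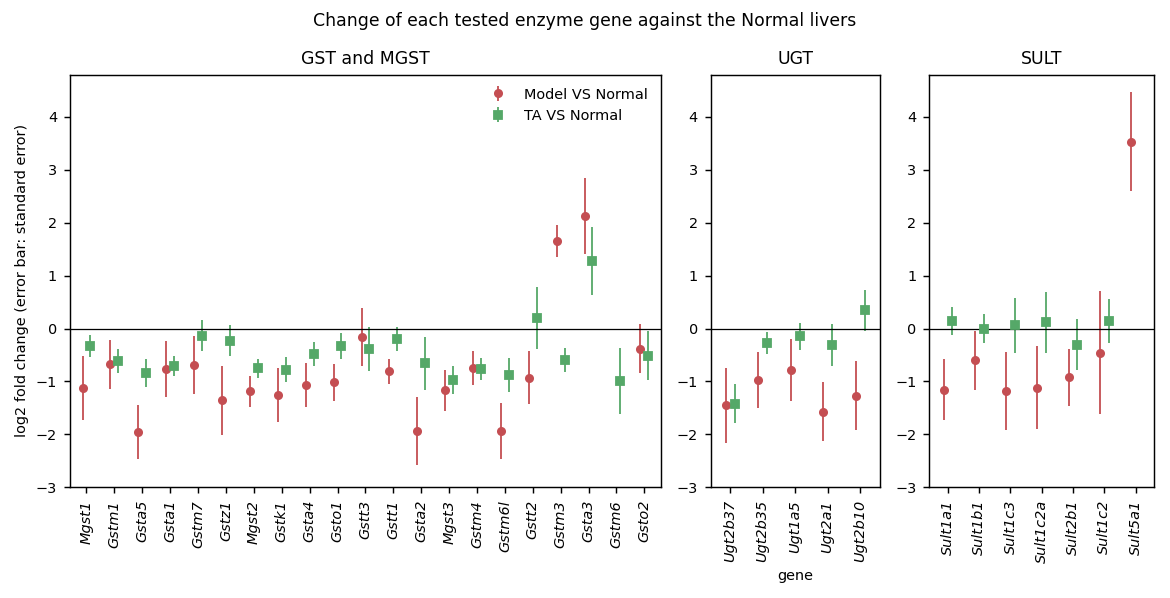
Log2 fold change with its standard error for each tested enzyme gene, for Model VS Normal (circles) and TA VS Normal (squares), which share the 3 Normal livers. Of 32 tested members, 29 lay below zero for Model VS Normal and 24 for TA VS Normal; scaling by library totals turned the sign of 2 genes in each comparison.

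Among the UGTs, Ugt2b37 was measured at 1741, 2249 and 4249 CPM in the Normal livers, 291, 1271 and 1449 in the Model livers and 769, 988 and 1385 in the TA livers. The Normal livers were above all others, with a range among them of over 2-fold. Its log2 fold change was -1.45 (SE 0.71, edgeR adjusted p = 0.218) for Model VS Normal and -1.03 without the first Model rat. Ugt2b35 was measured at 545, 597 and 580 CPM in the Normal livers, 102, 345 and 430 in the Model livers and 508, 554 and 399 in the TA livers. The Model livers did not overlap the Normal livers, and the log2 fold change was -0.97 (SE 0.52, edgeR adjusted p = 0.257) and -0.59 without the first Model rat. Ugt1a5, the only UGT1A symbol analysed here, shares exons with the other UGT1A transcripts, the family of the bilirubin enzyme, so that its reads may come from several of them. It was measured at 920, 1170 and 1033 CPM in the Normal livers, 211, 558 and 1032 in the Model livers and 1204, 959 and 708 in the TA livers. Its groups overlapped (log2 fold change -0.79, SE 0.58, edgeR adjusted p = 0.397), and the value shrank to -0.41 when the first Model rat was left out and grew to -1.45 when the third Model rat was. Ugt2a1, best known from the olfactory epithelium, was measured at 72.1, 107 and 211 CPM in the Normal livers, 16.4, 57.5 and 57.0 in the Model livers and 145, 92.7 and 81.7 in the TA livers. The Model livers were below all others, and its log2 fold change of -1.57 (SE 0.56, edgeR adjusted p = 0.116) made it the single UGT that passed the thresholds of the study in edgeR. In DESeq2, Ugt2b37, Ugt2b35 and Ugt2b10 passed them too (unadjusted p = 0.0131, 0.0449 and 0.0455). Ugt2b37, Ugt2b35 and Ugt2b10 are close paralogs, and their levels are uncertain where reads match more than one of them.

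Among the SULTs, Sult1a1 was measured at 520, 798 and 978 CPM in the Normal livers, 116, 476 and 437 in the Model livers and 970, 844 and 765 in the TA livers. The Model livers were below all others, and the TA livers were within the range of the Normal livers. Its log2 fold change was -1.16 (SE 0.58, edgeR adjusted p = 0.223) for Model VS Normal and -0.76 without the first Model rat. Sult1b1, which sulfates thyroid hormones, was measured at 338, 370 and 479 CPM in the Normal livers, 79.8, 397 and 304 in the Model livers and 559, 302 and 350 in the TA livers. Its groups overlapped, with a log2 fold change of -0.60 (SE 0.56, edgeR adjusted p = 0.498) that was -0.19 without the first Model rat. Sult1c3 was measured at 114, 113 and 34.1 CPM in the Normal livers, 11.9, 20.5 and 82.3 in the Model livers and 108, 128 and 40.0 in the TA livers. The spread within each group was wide, and the log2 fold change was -1.18 (SE 0.74, edgeR adjusted p = 0.323). Without the third Model rat it was -2.45 (edgeR adjusted p = 0.0268), and limma voom gave -1.90 (adjusted p = 0.0240). Sult5a1, named here after its values were seen, was measured at 0.581, 0 and 0.0839 CPM in the Normal livers, 2.73, 2.83 and 1.98 in the Model livers and 0.285, 0.169 and 1.64 in the TA livers. It was scarce everywhere and higher in every Model liver, with a log2 fold change of 3.53 (SE 0.94, edgeR adjusted p = 0.0585).

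**Figure D4:**
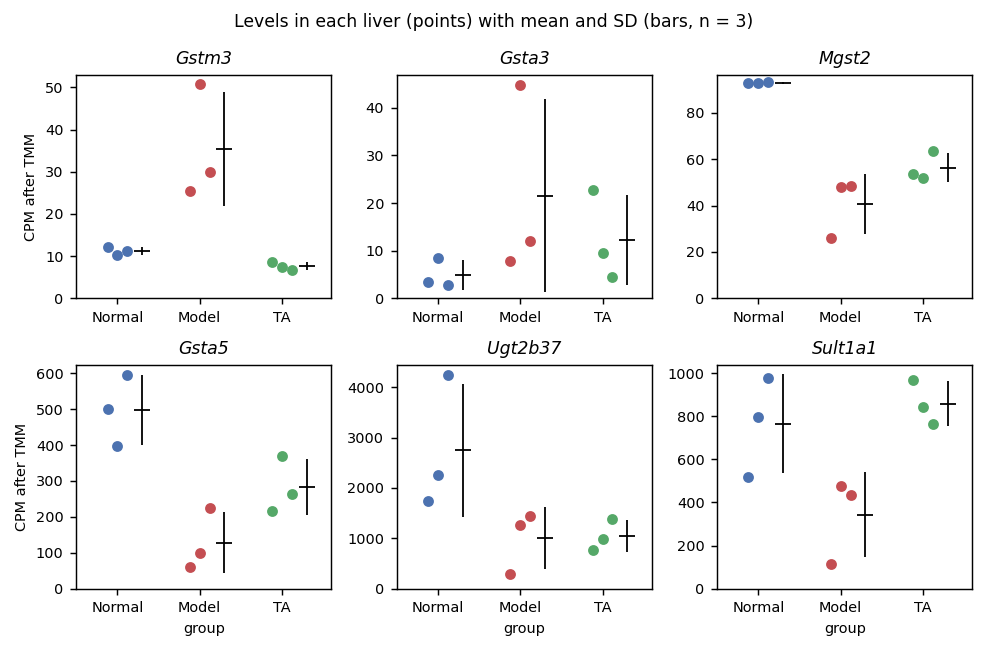
CPM of 6 members in each liver (points) with the mean and SD of each group (bars, n = 3); vertical axes start at 0. Gstm3 was highest in the 3 Model livers, Mgst2 and Gsta5 were highest in the 3 Normal livers, Gsta3 varied widely among Model livers, Ugt2b37 in the TA livers lay within the range of the Model livers, and Sult1a1 was lowest in the 3 Model livers.

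TA VS Model asks how livers treated with TA differed from untreated fibrotic livers, and it shares the 3 Model livers with Model VS Normal. Of 32 members tested, 0 passed an adjusted p under 0.05 in edgeR (background 0%), the smallest adjusted p being 0.230. At an unadjusted p under 0.05 in edgeR, 4 members were higher (533 of all 12781 genes tested) and 2 were lower (1466 of 12781). DESeq2 called 1 member lower (Gstm3; background 2.69%) and limma voom 2 (Gstm3 and Sult5a1; background 0.947%). By the thresholds of the study, Gsta2, Ugt2a1 and Sult1a1 were higher (3 of 32, background 2.11%) and Gstm3 and Sult5a1 were lower (2 of 32, background 10.2%). The TA livers were all above the Model livers for 8 members (background 10.5%) and all below them for 2 (background 12.6%). Of 3900 genes averaging 5 or more in log2 CPM, 812 had all TA livers above all Model livers, and 2678 had a positive log2 fold change. The members' median log2 fold change was 0.64 against -0.00 over all genes tested, 0.26 over those 3900 genes and 0.82 over the hepatocyte markers. The members' median was 0.55, 0.74 and 0.65 over the GST and MGST, UGT and SULT genes. The log2 fold change was positive for 27 of 32 members, of which Gsta1, Gstm1, Gstm4, Mgst3 and Ugt2b37 turned negative under library totals. Library totals moved the median of all genes to -0.48 and that of the members to 0.29. Without the first Model rat, the members' median was 0.28 against 0.035 over all genes tested. Then 0 members were higher and 1 was lower by the thresholds of the study, and the shares of all genes called in that fit are not reported here.

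Gstm3 had a log2 fold change of -2.22 (SE 0.32, edgeR adjusted p = 0.230) for TA VS Model, and -2.40 without the first Model rat. It was the 1 member still called by the thresholds of the study without that rat. Sult1a1 had a log2 fold change of 1.33 (SE 0.56, edgeR adjusted p = 0.313), and 0.93 without the first Model rat. For Gsta2 these values were 1.32 (SE 0.48, edgeR adjusted p = 0.281) and 0.96. For Ugt2a1 they were 1.29 (SE 0.49, edgeR adjusted p = 0.286) and 0.90. These 3 genes kept their direction without the first Model rat, and their log2 fold changes were then under 1. Of 6 fits with 1 rat left out, the call by the thresholds of the study was lost in 5 for Sult1a1 and Sult5a1, in 4 for Gsta2 and in 2 for Ugt2a1. Gsta5 had a log2 fold change of 1.15 (SE 0.51, edgeR adjusted p = 0.326) and Gstt1 one of 0.65 (SE 0.26, edgeR adjusted p = 0.300). Ugt2b37 and Gstm1 had log2 fold changes of 0.06 and 0.10, but -0.36 and -0.17 without the first Model rat, and they were also negative under library totals. For single genes, an exact two-sided permutation test of 3 rats against 3 cannot give a p below 0.1. Every gene whose groups do not overlap reaches this value. Gstm3, Sult1a1, Gsta2 and Ugt2a1 did so, as did Gsta4, Gsto1, Gstt1, Mgst1, Mgst2 and Sult5a1.

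TA VS Normal asks how far TA-treated livers still differed from livers that never received CCl4, and it shares its livers with both other comparisons. Of 32 members tested (Gstm6 was tested here and Sult5a1 was not), 0 passed an adjusted p under 0.05 in edgeR (background 0.263%), the smallest adjusted p being 0.151. At an unadjusted p under 0.05, 0 members were higher (background 5.99%) and 10 were lower (background 3.44%), of which 9 were GST or MGST genes and 1 a UGT. DESeq2 called 3 members at an adjusted p under 0.05, all lower (Gsta1, Mgst2 and Ugt2b37; background 0.436%), limma voom called 1 lower (Mgst2; background 0.213%), and edgeR with the replicate number as a block called 1 lower (Ugt2b37; background 0.361%). By the thresholds of the study, 0 members were higher (background 4.24%) and 1, Ugt2b37, was lower (background 1.02%). The TA livers were all above the Normal livers for 0 members (background 8.26%) and all below them for 11 (background 6.81%). Of 3325 genes averaging 5 or more in log2 CPM, 107 had all TA livers above and 360 all below the Normal livers. At an unadjusted p under 0.05 in edgeR, 68 of those 3325 genes were higher and 185 were lower. The median log2 fold change was -0.33 over the members, -0.60 over 21 GST and MGST genes, -0.27 over 5 UGT genes and 0.09 over 6 SULT genes. It was -0.24 over the hepatocyte markers, -0.099 over genes averaging 5 or more in log2 CPM and -0.01 over all genes tested. Whether the families differed from one another was not tested.

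Ugt2b37 had a log2 fold change of -1.42 (SE 0.37, edgeR adjusted p = 0.199) for TA VS Normal. With the replicate number as a block it was -1.36 (SE 0.18, edgeR adjusted p = 0.0195), the single call among the members in that fit. Without the third Normal rat it was -0.97, and without the other rats in turn it ran from -1.67 to -1.24. Mgst2 had a log2 fold change of -0.75 (SE 0.18, edgeR adjusted p = 0.151), Mgst3 one of -0.97 (SE 0.26, edgeR adjusted p = 0.218), Gsta1 one of -0.71 (SE 0.19, edgeR adjusted p = 0.218) and Gsta5 one of -0.84 (SE 0.26, edgeR adjusted p = 0.306). In each of these genes all TA livers were below all Normal livers. Gstm4, Gstk1, Gstm6l, Gstm1 and Gstm3 completed the 10, with log2 fold changes of -0.76, -0.78, -0.88, -0.61 and -0.60. Gsta1, Gstm4 and Gstk1 were named after their values were seen. Sult1a1 had a log2 fold change of 0.14 (SE 0.27, edgeR adjusted p = 0.959) for TA VS Normal, and its TA livers were within the range of the Normal livers.

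Genes that supply, export or regulate conjugation were read from lists made by function. For Model VS Normal, the thresholds of the study called 16.6% of all genes tested higher and 5.55% lower. By them, 0 of 4 genes for the UDP-glucuronic acid donor were higher and 1 was lower, of 6 for PAPS 1 was higher and 2 were lower, and of 6 for glutathione 2 were higher and 0 were lower. Among other conjugating enzymes 0 of 9 were higher and 2 were lower, and among 6 hydrolases and 7 efflux transporters 1 each was higher and 1 each was lower. At an edgeR adjusted p under 0.05 in Model VS Normal, the background of higher genes was 6.86%. Called so were 1 of 6 genes for PAPS, 1 of 6 for glutathione, 1 of 6 hydrolases and 1 of 7 efflux transporters. For the UDP-glucuronic acid donor this was 0 of 4, for other conjugating enzymes 0 of 9 and for regulators 0 of 14. Dpep1, a dipeptidase that trims glutathione conjugates, had a log2 fold change of 3.25 (SE 0.41, edgeR adjusted p = 0.0104). Ggt1, the gamma-glutamyltransferase that starts the breakdown of glutathione conjugates, had one of 2.30 (SE 0.38, edgeR adjusted p = 0.0171). Papss1, which makes PAPS, had one of 2.38 (SE 0.49, edgeR adjusted p = 0.0323), whereas its paralog Papss2 had one of -1.29 (SE 0.38, edgeR adjusted p = 0.0736). Abcc3, a basolateral export pump, had one of 2.19 (SE 0.47, edgeR adjusted p = 0.0359). These 4 calls held without the first Model rat, while without single Normal rats the adjusted p in edgeR was above 0.05 for Dpep1 in 2 of 3 fits and for Ggt1, Papss1 and Abcc3 in all 3, and for Abcc3 also without the second Model rat and with the replicate block. The 14 regulators tested had negative log2 fold changes throughout, with a median of -0.95, as had the 12 hepatocyte markers, with a median of -0.91. By the thresholds of the study, 0 regulators were DEGs with higher and 3 with lower levels. These included the hepatocyte factor Cebpa (-1.18) and the nuclear receptor partner Rxra (-1.28). For TA VS Model, Cebpa and Rxra were higher by the thresholds of the study, with log2 fold changes of 1.26 and 1.45, as were Papss2 (1.02), the medium-chain acyl-CoA synthetase Acsm3 (1.53) and the epoxide hydrolase Ephx2 (2.42), while Papss1 (-1.65), Ggt1 (-1.17) and Abcc3 (-1.44) were lower. Of these genes, Ephx2, Rxra and Abcc3 had overlapping groups for TA VS Model. Ephx2 was at 289 ± 231 CPM (SD, n = 3) in the TA livers, scaled over the livers of that comparison. Its exact permutation test gave p = 0.4. Ephx2 had a log2 fold change of -1.33 for Model VS Normal, past the thresholds of the study. Without the first Model rat, Rxra no longer passed them in Model VS Normal, and Papss2, Ephx2 and Ggt1 no longer passed them in TA VS Model. For TA VS Normal, Dpep1 (2.72, edgeR adjusted p = 0.0522) and Ggt1 (1.09) were higher by the thresholds of the study. Acsm5, a medium-chain acyl-CoA synthetase (1.05), was also higher by them, and the nuclear receptor Ppara (-1.15) was lower, both named after their values were seen.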

How the data were processed

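Liver RNA of 9 rats was selected by poly(A), sequenced, trimmed with Trimmomatic and Cutadapt, mapped with STAR and counted with HTSeq-count by the authors. The methods name a human genome as the reference and the labels name mm9, whereas the symbols are rat symbols, so that no coordinate comes from the tables, and strandedness was not stated. The deposited tables hold the authors' raw counts of reads on genes, FPKM values, and a signal that is the counts divided by DESeq2 size factors. The deposited log2 fold changes and p-values are the authors' own comparisons and were not used. Columns were matched to rats by their labels.

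Counts were tested with edgeR 4.0.16 (quasi-likelihood test, TMM, filter on low counts, R 4.3.3), using only the 2 groups compared and Benjamini-Hochberg adjustment over all genes tested. TA VS Normal used the 16730 genes in both tables. The standard error is the log2 fold change over the square root of F. Log2 CPM used a prior count of 2. Alternatives were DESeq2 1.42.0, limma 3.58.1 (voom with quality weights), other normalizations, no filter, the newer quasi-likelihood form, all 9 libraries, a replicate block and leaving out each rat. The test was checked on simulated data. The replicate numbers come from the labels. For TA VS Normal, rats sharing a number deviated together from their groups (r = 0.258, 0.426 and 0.501). The main fit of that comparison did not use this pairing, and its values are given unless a block is named. The fit with the block is given beside the main fit where a call changed. Whether rats shared a cage or a preparation day is not given in the sources used here, and p-values measure the spread between these livers. The depth per liver, 13156735 to 18090405 reads, limits the precision of scarce genes.

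Members and lists were chosen with earlier results of these data known. Values in every liver are given for the 3 members per family with the highest FPKM in the normal control group, every member with an adjusted p under 0.05, and per comparison the 4 members that were higher and the 4 that were lower with the largest change among those with an unadjusted p under 0.05 and a mean log2 CPM of at least 1. List genes are named where called in any comparison, the 12 with the smallest p, of which some are not reported here. Promoters come from RefSeq (GRCr8), in which 36 members matched by symbol and 30 had a promoter. Protein sequences were not used here.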

Additional observations from a re-analysis of the deposited data

How the results depend on the processing

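Over all tested members, the sign of the log2 fold change turned in 58 of 1344 values recomputed under other settings (7 of them in Model VS Normal, 21 in TA VS Model, 30 in TA VS Normal). Among 1036 values recomputed for 74 counts, medians and named genes, 15 changed direction, all for genes with adjusted p above 0.5. For Model VS Normal, Gstt3 was 0.013 with limma voom, 0.38 with library totals and -0.72 to 0.42 with 1 rat left out, and Gsto2 was 0.25 with library totals. For TA VS Model, Gstm1 was -0.12 and -0.28 with limma voom and library totals and -0.17 to 0.37 with 1 rat left out, and Ugt2b37 was -0.42, -0.26 and -0.36 to 0.44. For TA VS Normal, Sult1a1 was -0.082 to 0.35 with 1 rat left out. For Model VS Normal, 2 members passed an adjusted p under 0.05. The count was 11 with DESeq2, 12 with limma voom, 4 with library totals, with no filter or with the newer quasi-likelihood form, 5 with all 9 libraries and 6 with the replicate block, and 0 to 11 with 1 rat left out (0 without any single Normal rat, 11 without the third Model rat). By the thresholds of the study, 12 members became 19 with DESeq2, 7 with library totals, and 6 (without the third Normal rat) to 20 (without the third Model rat). Of all genes, the main fit called 16.6% higher and 5.55% lower by them, DESeq2 15.2% and 6.13%, and the fit without the third Model rat 18.8% and 10.9%. For TA VS Model, 0 members became 1 with DESeq2 and 2 with limma voom. By the thresholds of the study, 5 became 10 with limma voom, 2 with library totals, 9 with the replicate block, and 1 (without the first Model rat) to 12 (without the third Model rat), with 3 without the second Model rat and 2 without the first or the second TA rat. Of all genes, the main fit called 2.11% higher and 10.2% lower by them, and limma voom 4.69% and 8.69%. The median of 0.64 became 0.29 with library totals and 0.28 to 0.99 with 1 rat left out. For TA VS Normal, 0 members became 3 with DESeq2, 1 with limma voom and 1 with the replicate block. By the thresholds of the study, 1 became 2 with DESeq2, 4 with limma voom and 0 to 4 with 1 rat left out (0 without the third Normal rat, 4 without the second, 3 without the second or the third TA rat). Of all genes, the main fit called 4.24% higher and 1.02% lower by them, DESeq2 4.09% and 1.17%, and limma voom 4.9% and 1.68%. The median of -0.33 became -0.14 with library totals and -0.52 to -0.32 with 1 rat left out. The cause of these shifts was not tested. The shares of all genes called also moved with the setting, and not all of them are reported here. In Model VS Normal and TA VS Model, same-numbered rats correlated at r between -0.0567 and 0.218, and the main fit used no block there either. For TA VS Normal, the replicate block changed no other call of a member at an adjusted p under 0.05 or by the thresholds of the study. Members near the filter on low counts are limited by depth.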
